A study of Mactra quadrangularis with 9 samples.

Results

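In gill of the clam Mactra quadrangularis, 90 of the 24722 genes in the deposited table stood higher at each step down in dissolved oxygen, with the most transcript at 2 mg/L, less at 4 mg/L and the least at 7.5 mg/L. They include a cytosolic phosphoenolpyruvate carboxykinase, the alternative oxidase, a glucose transporter, a set of stress transcription factors led by C/EBP beta, inhibitors of apoptosis, DnaJ co-chaperones and integrin-like adhesion genes, and 44 genes without an informative description. They were picked by their measured levels, so their levels and ratios are given here as a description, with no test. A member had to reach a mean + 0.5 of at least 10 CPM (the gene's counts scaled to an equal library total) at 2 mg/L. The ratio of 4 to 7.5 mg/L had to be at least 1.5, that of 2 to 4 mg/L between 1.5 and 6, and that of 2 to 7.5 mg/L at least 3. All ratios are of group means of CPM with 0.5 added; 4 over 7.5 mg/L is called the first step and 2 over 4 mg/L the second.

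RNA of whole gill was sequenced in 9 libraries, 3 for each oxygen level. Clams of the hypoxia groups were kept at 2 mg/L or 4 mg/L by bubbling nitrogen under a plastic cover, and clams of the control group at 7.5 mg/L by aeration, each within 0.2 mg/L. The groups shared a temperature of 20 °C and a salinity of 27, were not fed, and gave gill after 24 h. Tanks held 40 clams each, but the labels do not say whether a library is a single clam or a pool, or which tank it came from, so the spread between libraries may be partly technical. The series text calls the species Mactra veneriformis, and age, sex and origin of the clams are not given in the sources used here. Library totals ran from 26994566 to 32246147 counts, and 20316 to 20958 genes had a count. Log2 CPM correlated at 0.977 to 0.982 across genes between libraries of a group and at 0.772 to 0.855 between groups.

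Bivalves meet low oxygen with a mixed metabolism. When oxygen runs short they ferment glycogen and aspartate, and phosphoenolpyruvate carboxykinase (PEPCK) can turn phosphoenolpyruvate into oxaloacetate, the branch that leads to succinate rather than to pyruvate. Many bivalves also carry an alternative oxidase, which takes electrons from ubiquinol straight to oxygen around the later respiratory complexes. Gill is the organ where the animal takes up oxygen and filters food, and it is built of ciliated epithelium with muscle, nerve and blood cells beneath.

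A higher level at both steps was uncommon. Of the 7924 genes that met the floor at 2 mg/L, 1598 were at least 1.5-fold higher at 4 than at 7.5 mg/L. At 2 mg/L, 815 of these stood within 1.5-fold of their level at 4 mg/L, 636 were at least 1.5-fold lower again, and 147, or 1.86% of the 7924, were at least 1.5-fold higher again. The upper limit on the step to 2 mg/L removed 42 of the 147, and the total ratio 15 more. The rule turned round, for genes that decline at both steps, held 103 genes. Members close to a threshold differed little from their neighbours outside it. NFIL3-like had a ratio of 4 to 7.5 mg/L of 1.53 and a cystathionine beta-synthase-like gene outside the limit 1.5 after rounding. The ETS factor ETV7-like had a total ratio of 3.05 and ADP-ribosylation factor-like protein 5B 2.99. Mve14G007120 had a ratio of 2 to 4 mg/L of 5.62, and the shell protein PIF-like just outside had 6.1.

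**Figure D1:**
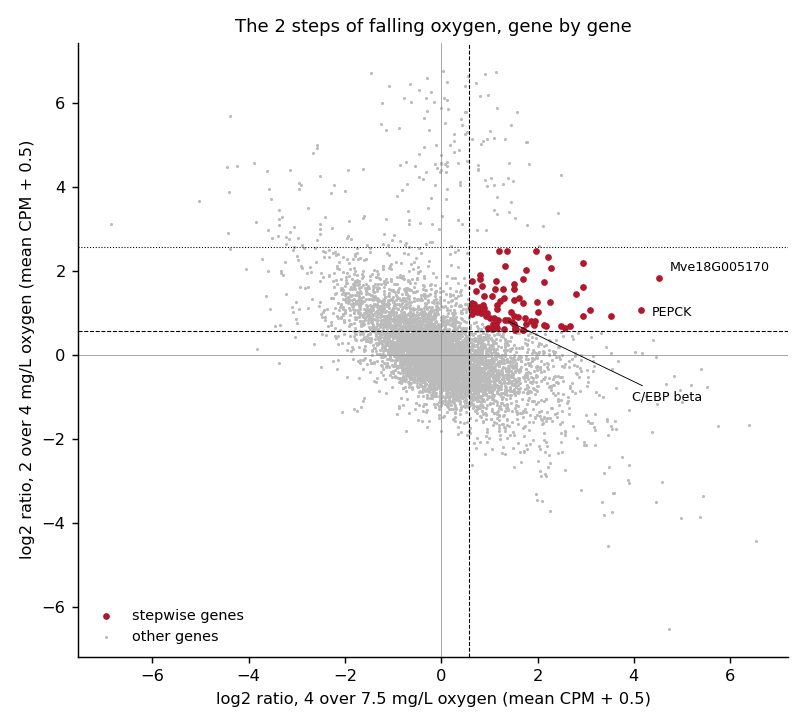
Each point is a gene with a mean + 0.5 of at least 10 CPM at 2 mg/L (7924 genes): the log2 ratio of 4 to 7.5 mg/L runs across and that of 2 to 4 mg/L runs up, with dashed lines at 1.5-fold and a dotted line at 6-fold. The 90 stepwise genes (red) fill the corner that is high on both axes, and most other genes that are high on 1 axis are near or below 0 on the other.

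At 2 mg/L the members spanned 0.742 to 3914.1 in mean FPKM (fragments scaled to gene length and library size). Their median level was 34.4 CPM at 2 mg/L, 16.9 CPM at 4 mg/L and 5.41 CPM at 7.5 mg/L. The median ratio was 2.51 for 4 over 7.5 mg/L (1.53 to 22.9), 2.11 for 2 over 4 mg/L (1.5 to 5.62) and 5.52 for 2 over 7.5 mg/L (3.05 to 81.1). In 19 members the total ratio was at least 10, and in 41 it was under 5. At 2 mg/L 28 members had at least 100 CPM and 27 had under 20 CPM, and 11 had under 1 CPM at 7.5 mg/L. Together the 90 genes took 4.11, 4.26 and 4.2% of the counts in the 3 libraries at 2 mg/L, 2.16, 2.17 and 2.23% of counts at 4 mg/L and 0.693, 0.684 and 0.676% of counts at 7.5 mg/L. Without the PEPCK gene the shares were 3.06 to 3.17% at 2 mg/L, 1.66 to 1.71% at 4 mg/L and 0.649 to 0.663% at 7.5 mg/L. These are bulk samples, so more cells of a type and more RNA per cell cannot be told apart.

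In 86 of the 90 members every library at 2 mg/L lay above every library at 4 mg/L, and every library at 4 mg/L above every library at 7.5 mg/L; over all genes in the table this held for 2.69%. For 2 above 4 mg/L alone it held for 90 members, against 23.8% of all genes, for 4 above 7.5 mg/L for 86, against 28.9%, and for 2 above 7.5 mg/L for 90, against 21.7%. The 4 members with an overlap, all at the step between 4 and 7.5 mg/L, were Mve14G012900, Mve19G001750, Mve03G002390 and Mve04G010810, none of which has an informative description. Mve14G012900 had 14.7, 15.4 and 19.1 CPM at 2 mg/L, 7.04, 5.02 and 0 CPM at 4 mg/L and 2.3, 2.25 and 1.77 CPM at 7.5 mg/L, so its overlap came from 1 library at 4 mg/L. The median coefficient of variation within a group was 7.27% at 2 mg/L, 9.12% at 4 mg/L and 13.5% at 7.5 mg/L. By edgeR's quasi-likelihood test at an adjusted p under 0.05, 89 members were called higher at 2 than at 7.5 mg/L, where 31.5% of all genes tested were higher and 32% lower, 63.5% in all. At 4 against 7.5 mg/L 88 were called higher, where 35.4% of all genes were higher and 34.5% lower, 69.9% in all. At 2 against 4 mg/L 89 were called higher, where 31.6% of all genes were higher and 32.1% lower, 63.7% in all. The same values chose the members, so nothing is read from these counts. Mve07G010010 was too low in FPKM to be tested. On total counts the median of all genes tested lay at -0.232 on the log2 scale for 2 against 7.5 mg/L and at -0.074 and -0.155 for 4 against 7.5 and 2 against 4 mg/L. With TMM scaling these medians were -0.032, -0.005 and -0.024, and TMM multiplied the ratios of 2 to 7.5 mg/L of 40 named members by 1.083 to 1.15. On FPKM with 0.5 added the factors ran from 0.395 to 1.097 with a median of 0.982. In 10 of the 40 the ratio was lower by more than the spread between libraries. Among them were tyrosinase, 14.1 in place of 35.6, NFAT5, 5.27 in place of 9.25, and the zinc finger gene Mve18G005300, 4.63 in place of 7.6. These 3 averaged 0.0132, 0.378 and 0.262 FPKM at 7.5 mg/L, where the added 0.5 sets much of the ratio.

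Among metabolic genes the PEPCK gene Mve06G010350 (chromosome 6, 34103329 to 34112237) stood apart. It had 10449.9, 10881.2 and 10462.5 CPM at 2 mg/L, 5021.7, 4946.6 and 5151.5 CPM at 4 mg/L and 297.1, 281.7 and 274.0 CPM at 7.5 mg/L. Its libraries were widely separated at both steps, with ratios of 17.7 for 4 over 7.5 mg/L and 2.1 for 2 over 4 mg/L. On the log2 scale 79.5% of the total difference of 37.2-fold was already present at 4 mg/L. In FPKM it averaged 2777.9 at 2 mg/L, below C/EBP beta at 3914.1 and the undescribed gene Mve13G005740 at 3015.2. The PEPCK genes next to it on the chromosome were not members. Mve06G010330 averaged 232.2 ± 13.8, 201.7 ± 3.7 and 80.9 ± 1.65 CPM at 2, 4 and 7.5 mg/L (SD, n = 3 each), and Mve06G010340 averaged 427.8 ± 11.4, 405.6 ± 13 and 243.7 ± 4.39 CPM. Their second steps were small, 1.15-fold and 1.05-fold. A further gene with the same description, Mve06G009330, averaged 3.76 CPM at 2 mg/L, 1.32 CPM at 4 mg/L and 0.488 CPM at 7.5 mg/L.

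The other 4 metabolic members concern respiration, glucose uptake and purine breakdown. The alternative oxidase Mve07G002200 (chromosome 7, 6170279 to 6180507) had 215.1, 221.1 and 225.9 CPM at 2 mg/L, 127.0, 109.6 and 122.9 CPM at 4 mg/L and 58.8, 55.5 and 53.5 CPM at 7.5 mg/L. Its steps were of like size, 2.13-fold and 1.84-fold. HIG1 domain family member 1A (Mve07G012370), a small protein of the inner mitochondrial membrane that hypoxia induces in mammals, had 47.9, 48.8 and 45.3 CPM at 2 mg/L, 30.2, 32.1 and 28.3 CPM at 4 mg/L and 8.56, 10.7 and 11.2 CPM at 7.5 mg/L. The gene described as facilitated glucose transporter member 1-like (Mve04G001160) had 88.3, 82.3 and 74.9 CPM at 2 mg/L, 53.4, 50.5 and 46.0 CPM at 4 mg/L and 11.3, 12.3 and 9.21 CPM at 7.5 mg/L. None of the groups overlapped in either gene, and the transporter's first step was the larger, 4.41-fold against 1.63-fold. The deposited GO terms give the transporter as one for fructose, and the adjoining gene of the same description, Mve04G001170, averaged 1.17, 8.08 and 2.57 CPM at 2, 4 and 7.5 mg/L. Xanthine dehydrogenase-like (Mve16G003460), which makes urate from hypoxanthine and xanthine, was the member nearest the floor, and it fell out of the set without library 1 or library 3 at 2 mg/L: it had 9.83, 8.53 and 10.2 CPM at 2 mg/L, 1.76, 4.39 and 2.36 CPM at 4 mg/L and 1.04, 0.939 and 0.651 CPM at 7.5 mg/L.

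**Figure D2:**
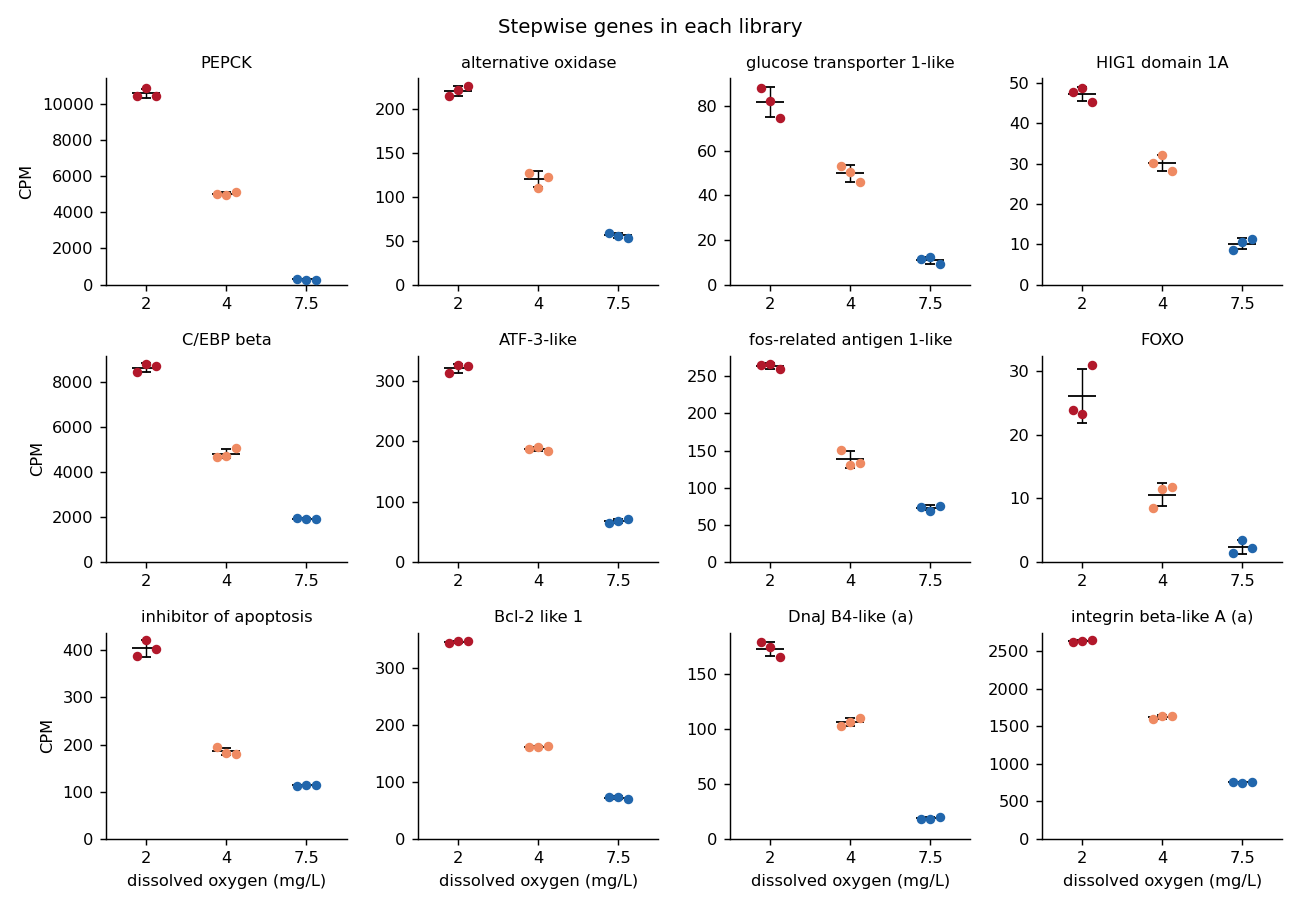
CPM of 12 stepwise genes in each library (points), with the mean and SD of 3 libraries (bars), against dissolved oxygen in mg/L; each panel has its own axis from 0. In each of the 12 panels the 3 groups are separate and fall in the order 2, 4 and 7.5 mg/L; PEPCK averages 10597.9 CPM at 2 mg/L and 284.3 CPM at 7.5 mg/L.

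The 12 described members that act on transcription or RNA include several factors known from stress responses in other animals. C/EBP beta (Mve06G004740; chromosome 6, 15558816 to 15561329), a leucine zipper factor of inflammation and acute stress in mammals, had 8428.6, 8788.4 and 8703.7 CPM at 2 mg/L, 4675.6, 4720.7 and 5044.8 CPM at 4 mg/L and 1935.3, 1911.4 and 1904.6 CPM at 7.5 mg/L. It was already abundant in control gill and gained 2.51-fold and then 1.79-fold. Other leucine zipper factors were lower in level, with 58.9, 70.9 and 94.1 FPKM at 2 mg/L for ATF-3-like, fos-related antigen 1-like and NFIL3-like. ATF-3-like (Mve02G003040), which in mammals answers many cell stresses, had 313.2, 327.6 and 325.1 CPM at 2 mg/L, 186.9, 190.9 and 183.9 CPM at 4 mg/L and 64.3, 67.4 and 70.2 CPM at 7.5 mg/L. Fos-related antigen 1-like (Mve02G005320), a partner in the AP-1 factor, had 265.8, 267.2 and 259.8 CPM at 2 mg/L, 151.1, 130.6 and 132.6 CPM at 4 mg/L and 73.8, 69.0 and 75.6 CPM at 7.5 mg/L. Both had fully separate groups. NFIL3-like (Mve08G010210), a leucine zipper repressor in mammals, had 201.5, 214.7 and 225.2 CPM at 2 mg/L, 91.6, 101.2 and 100.1 CPM at 4 mg/L and 58.7, 62.9 and 69.9 CPM at 7.5 mg/L. Its larger step was the one from 4 to 2 mg/L, at 2.18-fold against 1.53-fold, and it missed the rule without library 2 at 4 mg/L or library 1 at 7.5 mg/L. The other gene of that description, Mve03G008310, peaked at 4 mg/L, with means of 202.9, 242.4 and 144.8 CPM at 2, 4 and 7.5 mg/L.

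The factors with the greatest ratios, FOXO and NFAT5, were expressed at low levels, 7.75 and 4.13 FPKM at 2 mg/L. FOXO (Mve05G011660), the factor that insulin signalling restrains and that promotes stress resistance in animals, had 23.9, 23.3 and 31.0 CPM at 2 mg/L, 8.45, 11.5 and 11.8 CPM at 4 mg/L and 1.33, 3.41 and 2.14 CPM at 7.5 mg/L, a total ratio of 9.51. NFAT5 (Mve06G004390), known in mammals for its response to high tonicity, had 28.8, 29.3 and 27.3 CPM at 2 mg/L, 17.7, 14.5 and 22.2 CPM at 4 mg/L and 3.04, 2.38 and 2.48 CPM at 7.5 mg/L. At 4 mg/L 80.2% of its total log2 difference was present, a share that its spread at 4 mg/L does not set apart from the 79.5% of PEPCK. It did not meet the rule without library 2 at 4 mg/L, nor under every scaling. Immediate early response 5-like (Mve14G006460), named for a gene that serum switches on fast in mammalian cells, had 769.7, 763.7 and 725.7 CPM at 2 mg/L, 421.7, 429.4 and 407.9 CPM at 4 mg/L and 190.2, 189.0 and 178.0 CPM at 7.5 mg/L. ETV7-like (Mve16G012150) had 173.1, 167.2 and 162.7 CPM at 2 mg/L, 111.3, 103.7 and 108.9 CPM at 4 mg/L and 53.4, 54.9 and 55.5 CPM at 7.5 mg/L. In both genes the groups were separate, and their steps lay between 1.55-fold and 2.26-fold. The zinc finger factor EVI1-B (Mve18G006310; ratio of 2 to 7.5 mg/L 5.64), another zinc finger gene (Mve18G005300; 7.6), the RNA-binding protein CELF2 (Mve05G013810; 6.46) and the nuclear MORC3-like protein (Mve05G000310; 3.87) make up the 12, each with means of 10.3 to 46.9 CPM at 2 mg/L. A second EVI1-B gene, Mve04G003230, ran differently, at 14.8, 11.3 and 25.1 CPM at 2, 4 and 7.5 mg/L.

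Genes that in other animals hold back cell death form a small group. Bcl-2 like 1 (Mve12G003320; chromosome 12, 11616733 to 11620856), a guardian of the mitochondrial outer membrane in mammals, had 342.7, 347.3 and 346.1 CPM at 2 mg/L, 160.2, 160.2 and 162.2 CPM at 4 mg/L and 74.0, 72.5 and 69.7 CPM at 7.5 mg/L. Its steps were nearly equal at 2.22-fold and 2.14-fold, and its libraries within each group lay close together. Bcl-2-like protein 2 (Mve12G000560), of the same family and chromosome, had 15.1, 14.4 and 17.3 CPM at 2 mg/L, 7.16, 6.9 and 6.73 CPM at 4 mg/L and 4.04, 2.97 and 3.6 CPM at 7.5 mg/L. The putative inhibitor of apoptosis Mve05G013220 (chromosome 5, 42973630 to 42981945), of a family that blocks caspases, had 387.4, 421.9 and 402.3 CPM at 2 mg/L, 194.4, 182.4 and 179.9 CPM at 4 mg/L and 111.5, 113.6 and 114.5 CPM at 7.5 mg/L. The groups were separate in each of these genes, as in 86 of the 90 members. Of the 13 genes with this last description, 3 on chromosome 5 were expressed above 90 CPM. Those that were not members each missed a threshold of the rule: Mve05G013130 averaged 412.7, 308.2 and 113.5 CPM and Mve05G013310 averaged 263.2, 151.4 and 91.8 CPM at 2, 4 and 7.5 mg/L. The other 10 had at most 1.27 CPM in each group mean. Copies with the same description may share reads.

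Both genes described as DnaJ homolog subfamily B member 4-like, co-chaperones that hand unfolded proteins to HSP70, were members and lie on chromosome 3, at 8674094 to 8677122 and 8823606 to 8825276. Mve03G003290 had 179.0, 174.6 and 166.1 CPM at 2 mg/L, 102.8, 106.4 and 109.9 CPM at 4 mg/L and 17.9, 17.9 and 20.2 CPM at 7.5 mg/L. Mve03G003380 had 40.4, 40.1 and 42.1 CPM at 2 mg/L, 22.9, 23.5 and 23.3 CPM at 4 mg/L and 5.08, 6.29 and 5.52 CPM at 7.5 mg/L. They shared their shape, with a first step of 5.59-fold and 3.87-fold and a second of 1.63-fold and 1.74-fold. HSP70 itself (Mve07G002840) was not among the stepwise genes, at 1758.1 ± 30.4, 1627.0 ± 14.5 and 2257.2 ± 39.3 CPM at 2, 4 and 7.5 mg/L (SD, n = 3 each).

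Adhesion, matrix and cytoskeleton genes numbered 9, and on the median their second step was the larger, 2.29-fold against 1.93-fold. Integrin beta-like protein A, named for an adhesion receptor of the amoeba Dictyostelium, accounted for 3 of them. Mve02G003930 (chromosome 2, 11425334 to 11442670) had 2629.2, 2641.0 and 2655.4 CPM at 2 mg/L, 1599.0, 1636.4 and 1635.9 CPM at 4 mg/L and 762.6, 744.6 and 755.4 CPM at 7.5 mg/L. Mve02G003950, 27107 bases further along, had 496.2, 478.3 and 522.3 CPM at 2 mg/L, 175.7, 174.1 and 172.1 CPM at 4 mg/L and 109.2, 103.1 and 104.3 CPM at 7.5 mg/L. The neighbours thus differed in shape: the first had 61.2% of its log2 difference by 4 mg/L and the second 32.1%. Mve18G004330, which missed the rule without library 3 at 4 mg/L or library 2 at 7.5 mg/L and under another scaling, had 27.4, 29.5 and 28.5 CPM at 2 mg/L, 10.8, 11.5 and 13.2 CPM at 4 mg/L and 7.96, 6.63 and 7.63 CPM at 7.5 mg/L. The copies that the rule left out, Mve02G003940 and Mve18G004320, were also highest at 2 mg/L, with means of 99.5, 87.8 and 28.5 CPM and of 119.7, 92.8 and 51.7 CPM at 2, 4 and 7.5 mg/L.

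A collagen alpha-2(I)-like gene (Mve01G005080; chromosome 1, 14249848 to 14250820) had the smallest share of its difference at 4 mg/L of all members. It had 656.8, 755.2 and 697.0 CPM at 2 mg/L, 197.2, 198.9 and 221.5 CPM at 4 mg/L and 128.7, 131.3 and 136.0 CPM at 7.5 mg/L, so that 26.5% of its log2 difference was present at 4 mg/L. Without library 3 at 4 mg/L it was no longer a member. Its neighbour of the same description, Mve01G005090, was lowest at 4 mg/L, with means of 4147.8, 1182.7 and 1679.5 CPM at 2, 4 and 7.5 mg/L. PDZ and LIM domain protein 1-like (Mve16G007800), a scaffold on actin fibres, had the largest such share in this group, 73.8%, with means of 52, 34.2 and 10.3 CPM at 2, 4 and 7.5 mg/L. It left the set without library 3 at 2 mg/L or library 2 at 4 mg/L and under another scaling. The rest had under 7 FPKM at 2 mg/L: DMBT1-like (Mve10G004010), of the scavenger receptor type, the immunoglobulin-type adhesion genes nephrin (Mve01G018820) and nephrin-like (Mve04G013150), and a fat-like cadherin (Mve06G007870) had total ratios of 6.28, 5.14, 3.86 and 3.57. Nephrin-like left the set without library 1 at 2 mg/L. Of the genes so described, 1 of 25 for DMBT1 and 2 of 64 for nephrin were members, beside 0.364% of all genes in the table.

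**Figure D3:**
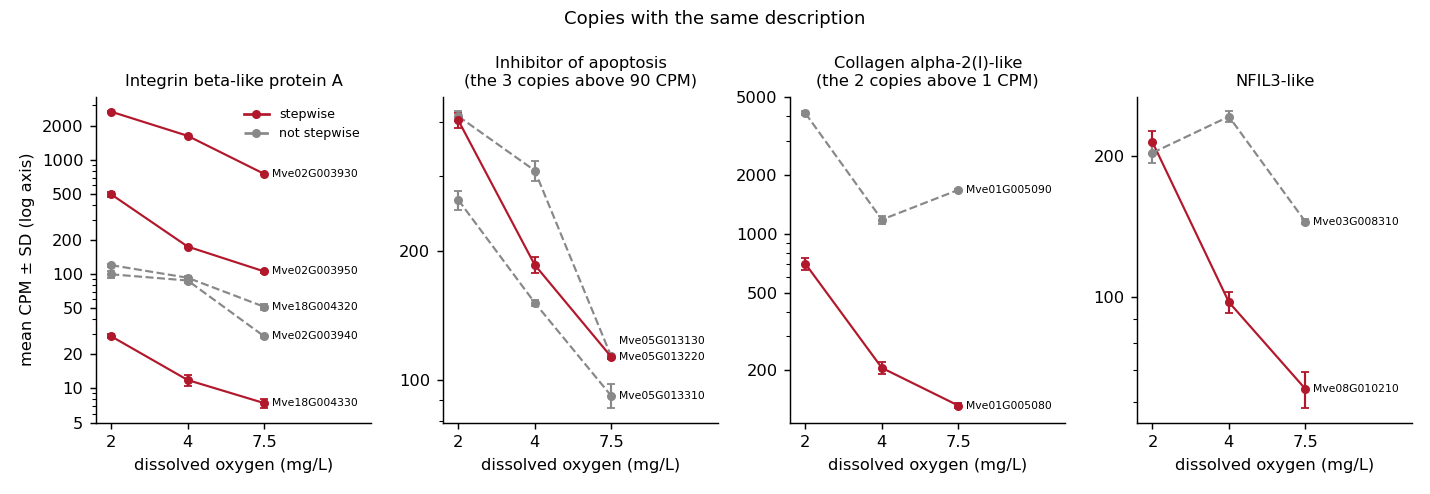
Mean CPM ± SD (3 libraries, log axis) at 2, 4 and 7.5 mg/L oxygen for genes that share a description, with stepwise genes as solid red lines and other copies as dashed grey lines. All 5 integrin-like copies are highest at 2 mg/L and lowest at 7.5 mg/L, whereas the second collagen gene is lowest at 4 mg/L and the second NFIL3-like gene is highest there.

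Signalling, lipid and transport genes numbered 8. The interleukin 17-like gene Mve11G002500, a cytokine of mollusc immunity, had 134.4, 149.6 and 138.6 CPM at 2 mg/L, 73.2, 79.1 and 75.4 CPM at 4 mg/L and 42.4, 32.3 and 37.2 CPM at 7.5 mg/L. Diacylglycerol kinase zeta (Mve05G013410), which turns diacylglycerol into phosphatidic acid, had 72.4, 62.1 and 65.6 CPM at 2 mg/L, 39.3, 35.1 and 32.1 CPM at 4 mg/L and 11.2, 10 and 13.1 CPM at 7.5 mg/L. Phospholipase D1-like (Mve05G015560), which makes phosphatidic acid from phosphatidylcholine, had 28.0, 29.1 and 26.7 CPM at 2 mg/L, 15.8, 16.8 and 16.6 CPM at 4 mg/L and 5.48, 5.88 and 5.02 CPM at 7.5 mg/L. The kinase had 63.9% and the phospholipase 66.7% of the log2 difference by 4 mg/L. Such shares were not particular to them: the median of all members was 56.4%, and C/EBP beta and ATF-3-like had 61.1% and 65.3%. Ceramide glucosyltransferase-like (Mve10G000240), which starts glycosphingolipid synthesis, had 18.8, 17.7 and 22.1 CPM at 2 mg/L, 12.7, 8.69 and 14.2 CPM at 4 mg/L and 1.33, 1.69 and 1.3 CPM at 7.5 mg/L, and left the set without library 2 at 4 mg/L. The more abundant gene of that description, Mve11G008930, was not a member, at 480.6, 419.7 and 246.8 CPM at 2, 4 and 7.5 mg/L. Solute carrier family 12 member 2-like (Mve10G004350), a sodium, potassium and chloride cotransporter in other animals, had 22.8, 19.1 and 20.8 CPM at 2 mg/L, 5.25, 7.34 and 4.87 CPM at 4 mg/L and 1.48, 2.47 and 3.13 CPM at 7.5 mg/L. FAM49B (Mve03G007050), a Rac1-binding protein in mammals, the MAST3-like kinase (Mve03G014570) and a t-SNARE domain protein (Mve16G008200) had total ratios of 7.24, 6.43 and 3.35. All 8 genes had separate groups at both steps.

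The remaining 7 described members are enzymes and an ankyrin repeat protein. Tyrosinase (Mve11G003960; chromosome 11, 11495394 to 11505304), a copper oxidase of pigment and shell cuticle, had 22.5, 17.6 and 15.8 CPM at 2 mg/L, 3.11, 4.14 and 3.72 CPM at 4 mg/L and 0.111, 0 and 0 CPM at 7.5 mg/L. Only 3 counts were found at 7.5 mg/L, against 1695 at 2 mg/L, so the plain ratio of CPM was 570.4 with an exact 95% counting interval of 194.9 to 2768.8, whereas the ratio with 0.5 added was 35.6. The interval covers counting error only, and counts in this table are not independent molecules. The next gene, also a tyrosinase, Mve11G003950, averaged 21.9 CPM at 2 mg/L, 0.0418 CPM at 4 mg/L and 0.699 CPM at 7.5 mg/L. Carbohydrate sulfotransferase 1 (Mve11G015670), which adds sulfate to sugar chains, had 8.85, 8.53 and 12.6 CPM at 2 mg/L, 1.26, 1.95 and 0.9 CPM at 4 mg/L and 0.111, 0.282 and 0.279 CPM at 7.5 mg/L. It was near both the floor and the upper limit of the rule, with a second step of 5.61-fold, and left the set without library 2 or 3 at 2 mg/L or library 2 at 4 mg/L, and under another scaling. Of the cytochrome P450 genes, which oxidise lipids and foreign compounds, Mve07G010720 had 24.9, 22.8 and 16.4 CPM at 2 mg/L, 4.52, 3.86 and 5.24 CPM at 4 mg/L and 1.48, 1.81 and 1.21 CPM at 7.5 mg/L. Cytochrome P450 2J6 (Mve05G012350) had 53.1, 46.5 and 49.0 CPM at 2 mg/L, 21.6, 28.4 and 26.8 CPM at 4 mg/L and 9.63, 6.85 and 9.49 CPM at 7.5 mg/L. Its sister Mve09G007000 peaked at 4 mg/L instead, at 45.7, 86.2 and 15.8 CPM at 2, 4 and 7.5 mg/L. Xaa-Pro aminopeptidase 1-like (Mve05G003170), which trims peptides ahead of proline, PARP14 (Mve13G007980), an ADP-ribosyltransferase, and ankyrin repeat domain protein 24-like (Mve10G010670) had total ratios of 3.74, 4.63 and 6.19. Among 17 genes described as PARP14, 1 was a member, beside 0.364% of all genes in the table.

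**Figure D4:**
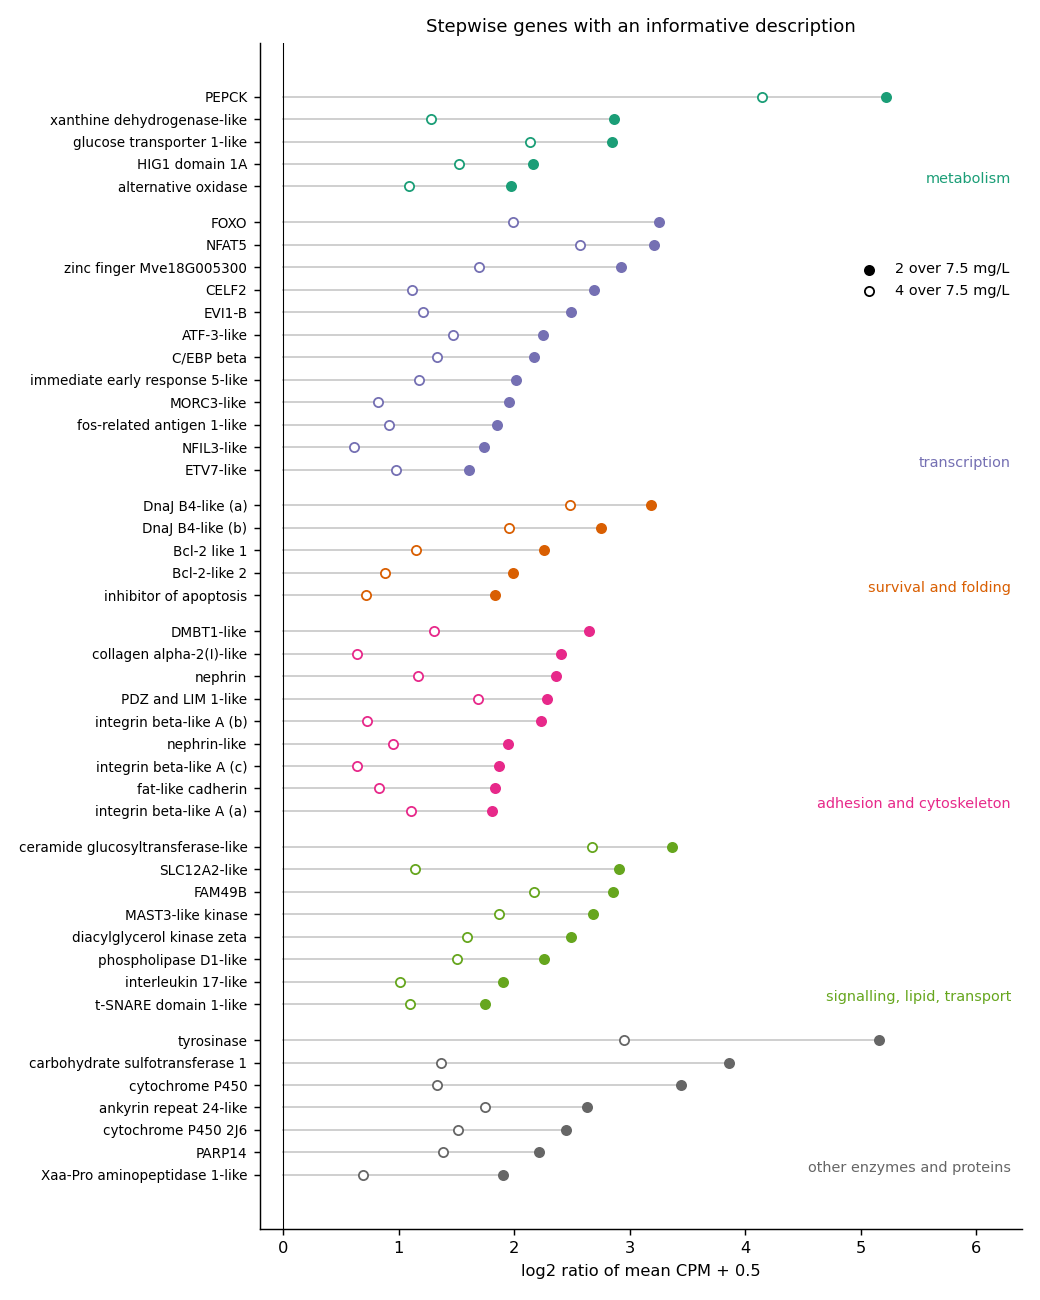
Log2 ratios of mean CPM + 0.5 for the 46 stepwise genes with an informative description, grouped by role: filled points give 2 over 7.5 mg/L, open points 4 over 7.5 mg/L. The open point is far along its line for PEPCK (79.5%), NFAT5 (80.2%) and the DnaJ genes (78 and 70.9%), and near the start for the collagen gene (26.5%).

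The balance of the steps varied widely within each role, and no difference between roles was tested. The share of the log2 difference present at 4 mg/L ran from 44.6 to 79.5% in metabolism, 39.4 to 79.3% in signalling, lipids and transport, 35.1 to 80.2% in transcription, 38.8 to 78% in survival and folding and 26.5 to 73.8% in adhesion and cytoskeleton. The median share was 70.4% for the 5 metabolic genes, 65.3% for the 8 of signalling, lipids and transport, 58% for the 12 of transcription, 51.2% for the 5 of survival and folding and 48.6% for the 9 of adhesion and cytoskeleton. It was 57.3% for the 7 other enzymes and proteins and 54.6% for the 44 genes without an informative description, and 56.4% over all 90. The first step was the larger in 52 members and the second in 38. The rule limits the second step to 6-fold and sets no such limit on the first, so this split and the shares above depend on it. The 42 genes left out by that limit had second steps of 6.1-fold to 107.1-fold. Median total ratios were 7.19 for metabolism, 6.03 for signalling, lipids and transport, 4.63 for transcription, 4.77 for survival and folding, and 4.71 for adhesion and cytoskeleton.

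Some of the largest differences were in genes that the deposited table does not name. Mve18G005170 (chromosome 18, 12611203 to 12615635), a hypothetical protein, had the greatest total ratio, 81.1, with 84.8, 90.8 and 73.2 CPM at 2 mg/L, 25.8, 22.3 and 21.0 CPM at 4 mg/L and 0.778, 0.25 and 0.558 CPM at 7.5 mg/L. Mve15G005780 had 12.2, 12.5 and 9.38 CPM at 2 mg/L and 3.64, 3.26 and 3.16 CPM at 4 mg/L, and no count in the 3 libraries at 7.5 mg/L. With 3 counts over the group taken as the floor, which may give too high a bound, it was at least 347.6-fold higher at 2 mg/L and at least 102.0-fold higher at 4 mg/L. The abundant unnamed members were Mve13G005740, with 6352.1, 6655.3 and 6805.8 CPM at 2 mg/L, 3961.9, 3939.1 and 3971.0 CPM at 4 mg/L and 1819.8, 1841.6 and 1770.1 CPM at 7.5 mg/L, and Mve13G003930, with 2556.0, 2676.2 and 2529.4 CPM at 2 mg/L, 1157.3, 1197.0 and 1313.1 CPM at 4 mg/L and 146.4, 141.0 and 143.6 CPM at 7.5 mg/L. Mve13G003930 carries a KEGG label of neuroactive ligand-receptor interaction, and its first step was 8.48-fold. Mve09G013600 had 1469.6, 1543.4 and 1515.8 CPM at 2 mg/L, 625.7, 640.3 and 616.8 CPM at 4 mg/L and 133.0, 134.1 and 127.0 CPM at 7.5 mg/L. All were fully separated between groups.

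GO or KEGG labels were on 15 of the 44 unnamed genes. Mve16G012200 is annotated as an inhibitor of caspases and had 371.1, 391.1 and 398.3 CPM at 2 mg/L, 194.6, 203.8 and 207.9 CPM at 4 mg/L and 18.8, 17.5 and 15.0 CPM at 7.5 mg/L. Its total ratio of 22.0 exceeded the 3.56 of the described inhibitor of apoptosis, and 79% of its log2 difference was there at 4 mg/L. Mve03G016470, whose labels include the FoxO pathway, the transition into mitosis, cell cycle arrest, the DNA damage response, positive regulation of apoptosis and activation of a MAP kinase cascade, had 874.0, 905.0 and 883.5 CPM at 2 mg/L, 570.2, 596.2 and 557.3 CPM at 4 mg/L and 200.3, 196.9 and 193.3 CPM at 7.5 mg/L. Labels of 5 others name a dioxygenase (Mve04G005960, total ratio 5.52), a histamine N-methyltransferase (Mve04G007130, 3.53), cell-matrix adhesion (Mve15G011520, 18.9), a subunit of a heterotrimeric G protein (Mve19G003340, 6.27) and the troponin complex (Mve16G011800, 3.64). A further 4 have labels of transcription or chromatin, namely regulation of transcription (Mve11G014330, 14.7), promoter DNA binding (Mve04G004670, 4.4), RNA polymerase (Mve04G010810, 6.16) and chromatin binding with lysine methylation (Mve07G010010, 3.5). Mve09G002060 (4.85) is labelled with kinase activity and amino sugar metabolism and Mve04G009720 (3.51) with transmembrane transport, and Mve18G005170 has general terms alone. Over the 44 genes the total ratio ran from 3.06 to 81.1 with a median of 5.92, close to the 5.52 of all members.

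The members lay on 18 of the 19 numbered chromosomes, with none among the 900 genes of chromosome 17. Chromosome 3 held 10, and chromosomes 4 and 5 held 9 each, of 1653, 1345 and 1448 genes. Neighbouring members were rare: 4 pairs, 8 genes in all, were separated by at most 5 other genes. These were the integrin-like pair on chromosome 2, ETV7-like with the caspase inhibitor Mve16G012200 on chromosome 16, and pairs of unnamed genes on chromosomes 14 and 15. The genes between ETV7-like and Mve16G012200 were not members, and the other ETV7 gene there averaged 2.29 CPM at 2 mg/L, 0.573 CPM at 4 mg/L and 0.614 CPM at 7.5 mg/L.

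The annotated shares of members lay near those of the table as a whole, and no difference was tested. An informative description was present for 51.1% of members and 55.3% of all genes, a GO term for 54.4 and 59.5%, and a KEGG pathway for 24.4 and 24.1%. Members without any description were 22.2%, against 15.8% of all genes. Of GO terms on at least 5 members, protein homodimerization activity was on 6 of the 49 annotated members (12.2%, against 1.5% of annotated genes), and these were C/EBP beta, NFIL3-like, both Bcl-2 genes, the aminopeptidase and Mve07G010010. The term nucleus was on 12 members (24.5 against 14.2%), protein binding on 5 (10.2 against 5.75%), cytoplasm on 6 (12.2 against 15.8%) and integral component of membrane on 5 (10.2 against 15.6%). No KEGG pathway was on 5 members. FoxO signalling was on 3 of 22, namely PEPCK, FOXO and Mve03G016470, and Notch signalling on the 3 integrin-like genes.

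Whether the pathways around the members moved with them was read from lists of genes picked by words in the description, by edgeR's quasi-likelihood test with Benjamini-Hochberg adjustment over 15397 genes. Members had to rise by the rule, so the counts are given without them, and the lists were chosen with earlier results of these data known. The 18 stress transcription factors tested held 3 members, C/EBP beta, ATF-3-like and fos-related antigen 1-like. Of the other 15, 10 rose and 2 fell at 2 against 7.5 mg/L, with a median of 0.65 on the log2 scale beside -0.03 for all genes. At 4 against 7.5 mg/L 9 rose and 3 fell (median 0.33). At 2 against 4 mg/L 7 rose and 3 fell (median 0.08, and -0.05 on total counts). On total counts 5 fell in place of 2 at 2 against 7.5 mg/L. Over all genes tested 4847 rose and 4924 fell at 2 against 7.5 mg/L, 49.6% of calls upward, which total counts turned into 35.9%. At 2 against 4 mg/L 4871 rose and 4942 fell, 49.6% upward and 40.2% on total counts.

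The other lists held genes that rose and genes that fell, some evenly and some not. At 2 against 7.5 mg/L, without members, 39 peptidases and inhibitors rose and 70 fell, and 125 innate immune genes rose and 188 fell. Xenobiotic and redox enzymes gave 58 and 92, signalling receptors and kinases 487 and 276, and lipid metabolism 57 and 63. Transporters gave 115 and 115, and other transcription regulators 96 and 92. On total counts falls outnumbered rises in each of these, 401 against 378 in signalling. Word matches also put the member PEPCK, a metabolic enzyme, in that signalling list. Of 44 anaerobic and carbohydrate enzymes beside the members PEPCK and alternative oxidase, 14 rose and 18 fell at 2 against 7.5 mg/L, 12 and 25 on total counts. At 4 against 7.5 mg/L 19 rose and 14 fell, 17 and 14 on total counts, and at 2 against 4 mg/L 13 rose and 21 fell, 7 and 24 on total counts. Of 116 cell death regulators 48 rose and 31 fell at 2 against 7.5 mg/L, 42 and 42 on total counts. At 4 against 7.5 mg/L 46 rose and 39 fell, 44 and 44 on total counts, and at 2 against 4 mg/L 44 rose and 32 fell, 36 and 39 on total counts. The 3 members in that list are of types that block cell death in mammals. Of 139 cytosolic chaperones beside the DnaJ pair 70 rose and 43 fell at 2 against 7.5 mg/L, 51 and 55 on total counts. At 4 against 7.5 mg/L 54 rose and 56 fell, and at 2 against 4 mg/L 67 rose and 41 fell, 59 and 53 on total counts. The matrix and adhesion list held 7 members, and of its other 250 genes 91 rose and 91 fell at 2 against 7.5 mg/L, 74 and 114 on total counts. Endoplasmic reticulum folding genes had no member: 7 of 18 rose and 6 fell at 2 against 7.5 mg/L, 3 and 6 on total counts, 14 rose and 1 fell at 4 against 7.5 mg/L, and 2 rose and 15 fell at 2 against 4 mg/L. The lists of cytosolic ribosomal proteins (65 genes), DNA replication (82), and autophagy and ubiquitin (478), all picked by words in the description, held no member either. Members were 0.364% of all genes, so no member in lists of this size, or in the 19 folding genes, is near that share and is not read as a result. By KEGG label, both Bcl-2 genes are in autophagy and in protein processing in the endoplasmic reticulum, and the inhibitor of apoptosis Mve05G013220 and Mve16G012200 are in ubiquitin mediated proteolysis.

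Transcripts of 3 genes tied to oxygen sensing, HIF-1alpha, EGLN1-like and ARNT, did not follow the stepwise pattern. ARNT (Mve10G004750) averaged 46.7 ± 0.379, 53.1 ± 3.74 and 39.6 ± 4.29 CPM at 2, 4 and 7.5 mg/L (SD, n = 3 each). HIF-1alpha (Mve02G016380), the subunit of the hypoxia-inducible factor whose stability depends on oxygen, had 195.0, 175.6 and 171.5 CPM at 2 mg/L, 266.9, 250.1 and 248.9 CPM at 4 mg/L and 95.9, 98.1 and 101.8 CPM at 7.5 mg/L. It was highest at 4 mg/L, and the log2 change at 2 against 4 mg/L was -0.37 (edgeR quasi-likelihood, adjusted p = 4.83e-06). The EGLN1-like gene (Mve02G014470), a prolyl hydroxylase that marks HIF-1alpha for breakdown, had 70.9, 62.3 and 58.3 CPM at 2 mg/L, 66.3, 62.9 and 66.4 CPM at 4 mg/L and 29.7, 30.6 and 27.4 CPM at 7.5 mg/L. Both hypoxia groups stood above control, and the difference between 2 and 4 mg/L, 0.1 on the log2 scale, did not pass (edgeR, adjusted p = 0.246).

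Markers of the cell types in gill moved too, on courses of their own. The 82 ciliary genes, which mark gill epithelium, were all detected and summed to 8199.1 to 8421.3 CPM at 2 mg/L, 8637.5 to 8950.8 CPM at 4 mg/L and 10553.3 to 10656.1 CPM at 7.5 mg/L, and none was a member. By edgeR, of 79 tested, 21 rose and 37 fell at 2 against 7.5 mg/L, and 14 rose and 42 fell at 4 against 7.5 mg/L. At 2 against 4 mg/L 29 rose and 15 fell, 20 and 26 on total counts. The 37 muscle genes summed to 11477.9 to 13835.2 CPM at 2 mg/L, 4193.0 to 4379.6 CPM at 4 mg/L and 4471.9 to 4567.7 CPM at 7.5 mg/L. Their sum was higher at 2 mg/L alone, none was a member, and none was at 0. The list goes by description, so it does not hold the unnamed member Mve16G011800, which has GO labels of the troponin complex and muscle contraction. The sum of the 54 haemocyte genes was highest at 4 mg/L, with 2239.2 to 2298.3 CPM at 2 mg/L, 5074.5 to 5151.7 CPM at 4 mg/L and 3499.6 to 3575.1 CPM at 7.5 mg/L. Gene by gene the list was mixed: of 33 tested, 9 rose and 13 fell at 4 against 7.5 mg/L (edgeR, median log2 0.02). It held no member either. Members were 0.364% of all genes, so no member in lists of 82, 37 and 54 genes is near that share and is not read as a result. The 61 mantle and shell genes, 1 of them the stepwise tyrosinase, summed to 661.8 to 704.2, 698.8 to 726.0 and 620.4 to 654.9 CPM at 2, 4 and 7.5 mg/L. Digestive gland genes summed to 3607.3 to 3694.1, 4409.4 to 4581.8 and 4225.6 to 4297.1 CPM, gonad genes to 1751.9 to 1815.1, 1910.1 to 1939.2 and 2815.6 to 2847.5 CPM and neuron genes to 2850.4 to 2904.2, 3767.6 to 3833.9 and 3059.2 to 3106.1 CPM at 2, 4 and 7.5 mg/L. The neuron sum was highest at 4 mg/L, but of 45 neuron genes tested 11 rose and 19 fell at 4 against 7.5 mg/L. Word matches put phospholipase D1-like among the digestive and CELF2 among the neuron genes. All these sums are on column totals, and TMM scaling raises levels at 2 mg/L against those at 4 and 7.5 mg/L. The part of these shifts in the levels of the members was not tested.

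**Figure D5:**
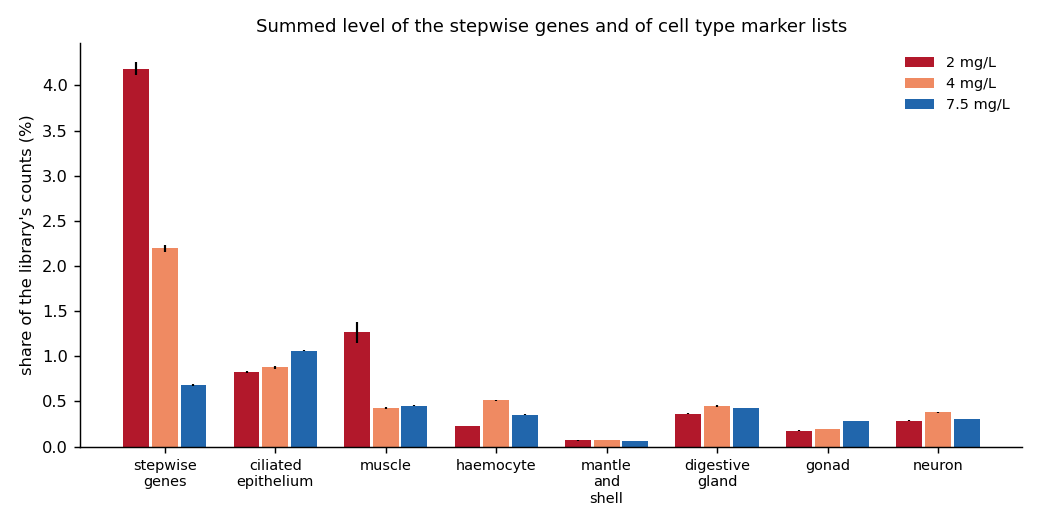
Share of library counts (%) taken by the 90 stepwise genes and by 7 marker lists at 2, 4 and 7.5 mg/L oxygen; bars give the middle of the range over 3 libraries and black lines the range. The stepwise genes, which had to rise by the rule, stand near 4.2, 2.2 and 0.7%. On column totals no marker sum is higher at both steps: the muscle sum is higher at 2 mg/L alone and the haemocyte sum is highest at 4 mg/L. Other scalings of the sums were not examined.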

How the data were processed

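Gill RNA of 9 libraries was analysed from 1 deposited table of 18 value columns. Per the submitters' processing notes, StringTie 2.1.6, HISAT2 2.2.1, cutadapt 1.9, edgeR and DESeq2 were used. The authors' counts are raw whole numbers per gene, and the deposited FPKM values are scaled to gene length and mapped fragments, per the file headers. The genome build, the use of strand in counting and gene sequences are not given in the sources used here, and coordinates are those of the table. CPM was computed on column totals. The 15397 genes that averaged 1 FPKM or more were tested with edgeR 4.0.16 (R 4.3.3; quasi-likelihood, TMM, all 9 libraries, Benjamini-Hochberg, threshold 0.05). DESeq2 1.42.0, limma 3.58.1 on log2(FPKM + 1), other scalings, filters, a replicate block and left-out libraries were alternatives. The script recovered changes made in simulated counts. The common biological coefficient of variation was 11.8%, and no libraries of a group agreed within sampling noise. Even counts were commoner than odd ones (2649 cells held a 2 and 1855 a 1), so counts are not independent molecules. Members, lists and roles were chosen with earlier results of these data known. Names follow a rule that picked 40 members (the most abundant, the largest ratios, up to 4 per list, those by a threshold or in a run); other described members are given so that none is left out, and were chosen after their values were seen.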

Additional observations from a re-analysis of the deposited data

How the results depend on the processing

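The number of stepwise genes depended most on scaling. It was 139 with TMM and 142 with median-of-ratios library sizes, each sharing 87 genes with the 90, because both scalings raise the ratios with falling oxygen. It was 84 with FPKM ratios, 91 and 94 with 1 or 0.1 added, 129 and 64 with a floor of 5 or 20 CPM, 132 with no upper limit, 93 with medians, 86 with every library in order, and 88 with the floor on the mean alone, a choice made after seeing the data. Leaving out each library in turn gave 85 to 97 genes, and leaving out 1 library of each group, also chosen after seeing the data, 92 to 95. Of the 90, 67 stayed with each library left out, 79 under the 4 scalings and 65 under both; described genes lost in both ways were NFAT5, the PDZ and LIM gene, the sulfotransferase and Mve18G004330, and those lost with a left-out library alone were the collagen gene, NFIL3-like, ceramide glucosyltransferase-like, xanthine dehydrogenase-like and nephrin-like. The ratio of 2 to 7.5 mg/L of 40 named members moved by more than the spread between libraries in 24 with TMM, 25 with median-of-ratios and 10 with FPKM, upward with the first 2 and downward with FPKM, and reversed in none. With a mean of at least 5 FPKM, which tests 8321 genes, 5975, 6248 and 5923 genes were called at 2 against 7.5, 4 against 7.5 and 2 against 4 mg/L, in place of 9771, 10760 and 9813. Replicate numbers did not pair the libraries (correlations of -0.026 to 0.006 for equal numbers), and the replicate block gave 9508, 10519 and 9531 calls. Depth limits the lowest members: 11 were under 1 CPM at 7.5 mg/L, where the added 0.5 sets much of the ratio. The FPKM setting also adds 0.5, which weighs on genes of low FPKM, so a loss there need not come from the scaling itself.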

Other observations

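Genes that the upper limit kept out numbered 42, with ratios of 2 to 4 mg/L of 6.1 to 107.1 and a median of 21.6, and are given as values only. An informative description was present for 11 of them. They include the shell matrix protein-like gene Mve11G012680, with means of 67.7 CPM at 2 mg/L, 1.42 CPM at 4 mg/L and 0.272 CPM at 7.5 mg/L, and an extracellular copper/zinc superoxide dismutase (Mve05G004020), an enzyme that removes superoxide, with 81.3, 0.622 and 0.141 CPM. The other described genes were chitotriosidase-1, chitin synthase, peritrophin-1-like, PIF-like, temptin, an ependymin-related protein, a notch homolog 1-like gene, a fusarin C synthetase-like gene and a transposon polymerase. The mantle and shell list held 3 of the 42 (7.14%), against 0.247% of all genes in the table, and was not tested against them. The list as a whole was mixed: of 26 genes tested by edgeR, 12 rose, 6 fell and 8 were not called at 2 against 4 mg/L. Its sum on column totals was 661.8 to 704.2 CPM at 2 mg/L and 698.8 to 726.0 CPM at 4 mg/L. The largest level was that of the hypothetical gene Mve13G009170, at 1077.8 CPM at 2 mg/L, 9.56 CPM at 4 mg/L and 4.08 CPM at 7.5 mg/L.

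Some of these genes adjoin stepwise ones. Peritrophin-1-like lies next to NFIL3-like on chromosome 8, and Mve03G015410 lies next to the stepwise Mve03G015420, with which it shares a description.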
